A study of Homo sapiens with 6 samples.

Results

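Chemokines are small secreted proteins that draw leukocytes along a gradient by binding receptors on their surface. The ELR-type CXC chemokines, named for a glutamate-leucine-arginine motif in front of their paired cysteines, bind CXCR1 and CXCR2 and chiefly attract neutrophils. CXC chemokines without that motif and the CC chemokines mostly attract lymphocytes, monocytes and dendritic cells. Epithelial cells are a known source of several of these ligands, and NF-kB and AP-1 are the textbook activators of their genes.

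This account covers 10 chemokine genes in T24 cells, chosen by symbol. They were the ELR-type CXC genes CXCL1, CXCL2, CXCL3, CXCL5, CXCL6 and CXCL8, the other CXC genes CXCL10 and CXCL16, and the CC genes CCL2 and CCL20. All 10 symbols matched an Ensembl gene among the 37871 genes of the count table, and all 10 were among the 19170 with enough counts to be tested. T24 is an established human bladder carcinoma line. The RNA came from 3 libraries of T24 cells given LPS plus nigericin and 3 libraries of T24 cells given vehicle, all grown in high-glucose DMEM with 1% pen-strep. LPS (lipopolysaccharide, from the outer membrane of Gram-negative bacteria) activates TLR4, and nigericin carries potassium out of cells and is widely used to trigger the NLRP3 inflammasome. Both agents were given together and no label names either alone, so a difference belongs to the combination. No label says that the 3 libraries of a group were grown separately, so a p-value here speaks for the variation among these libraries only, which may be technical. The data are from 1 cell line in culture with no leukocytes named in it, and they measure RNA, not secreted protein.

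Library totals were 66180407 to 89152224 counts. Levels are CPM, each gene's counts as a share of its library scaled by TMM factors. Means carry the SD of 3 libraries. Fold changes are LPS plus nigericin over vehicle from edgeR's quasi-likelihood fit across all 19170 genes, with Benjamini-Hochberg adjusted p-values called at 0.05. The comparison was broad: 28.9% of tested genes were called higher and 26.4% lower, 55.3% in all. Keratin genes that mark epithelial cells were abundant, KRT18 at 471 ± 66.9 CPM after LPS plus nigericin and 1536 ± 273 CPM in vehicle, and of 6 tested epithelial markers 5 were called lower. In a fit with offsets, per-library corrections for each gene's GC content and transcript length, 4 were, as KRT7 was then at 0.08 on the log2 scale (edgeR adjusted p = 0.382) and KRT19 was at -0.60, against -1.38 without them. Summed, the 7 listed epithelial markers stood at 3511 to 4513 CPM after LPS plus nigericin and 6539 to 9540 CPM in vehicle. Of 5 tested urothelial markers PPARG and GATA3 were called lower, and of 4 tested fibroblast and endothelial markers 0 were called by edgeR (also 0 at an unadjusted p under 0.05 and with DESeq2 or limma-voom), with DCN, LUM and KDR at 0 counts in all 6 libraries. The 4 tested were COL1A1, PDGFRB, PECAM1 and CDH5. COL1A1 had counts in all 6, at 3.35 ± 0.36 CPM after LPS plus nigericin and 4.29 ± 0.63 CPM in vehicle. CDH1, the epithelial cadherin, had 0 counts in 5 of 6 libraries, and the uroplakin gene UPK1B had 0 counts in all 6. Of 20 leukocyte markers 16 were listed and 9 tested. CD79A and LYZ were called higher, CD68 was called lower, and the call of LYZ ended without LPS plus nigericin replicate 1 or vehicle replicate 1 (edgeR adjusted p = 0.0588 and 0.0580). The pan-leukocyte gene PTPRC had counts in 1 library only, at 0.0360 CPM, and the neutrophil gene MPO and the T cell gene CD3D had 0 counts in all 6. CD14 and CD33 had counts in all 6, CD14 at 3.06 ± 0.94 CPM after LPS plus nigericin and 3.43 ± 0.81 CPM in vehicle. The summed leukocyte markers, most of it LAPTM5, stood at 185 to 194 CPM after LPS plus nigericin and 199 to 237 CPM in vehicle. The part of these marker differences in the chemokine values was not tested, and in bulk RNA a change in the cells present and a change in RNA per cell cannot be told apart.

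After LPS plus nigericin 9 of the 10 chemokine genes rose and 0 fell, where 28.9% of all tested genes rose. All 9 rose at least 4-fold, a size reached by 6.03% of tested genes, and 6 of them at least 8-fold, reached by 3.27%. CXCL10 (8.01-fold) and CXCL2 (8.11-fold) lay just past that size. The count at 8-fold was 5 with RLE factors, DESeq2, no count filter or 1 CPM required in 3 libraries, and without vehicle replicate 1. CXCL10 fell short in each of these. The count was 4 with library totals, without LPS plus nigericin replicate 2 or without vehicle replicate 2. With offsets for GC content and length it was 3, and there 8 members reached 4-fold and CXCL5 did not. The genes were picked with earlier results of these data in view, so the count describes them and is no independent evidence about chemokines as a class. The same 9 genes showed no overlap between the 3 treated and 3 vehicle libraries with the treated ones higher, which held for 35.0% of tested genes (67.0% counting either direction). The median log2 fold change was 3.01 over the 10 members, 3.24 over the 6 ELR-type genes and 0.0016 over all tested genes. CXCL16 alone did not pass.

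**Figure D1:**
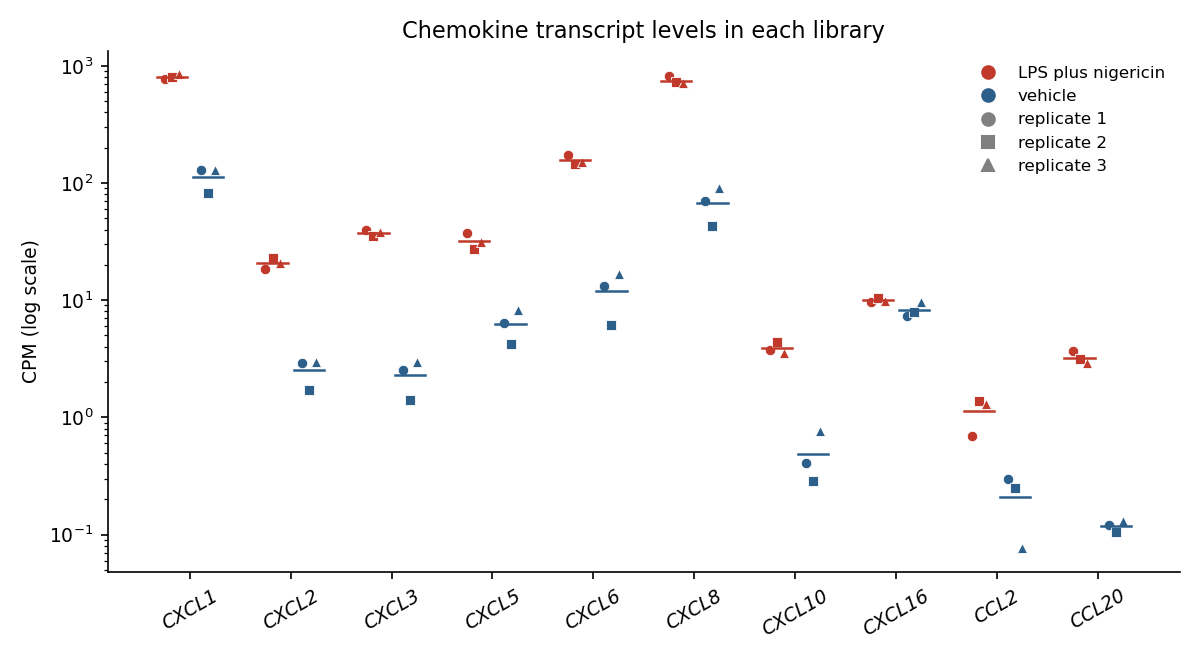
Each point is the CPM (log axis) of 1 library, red for LPS plus nigericin and blue for vehicle, with the marker shape giving the replicate and the line the mean of 3 libraries. The groups stand apart for 9 genes and overlap for CXCL16, and vehicle replicate 2 (blue square) is the lowest vehicle library for all 6 ELR-type genes.

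CXCL8, which encodes interleukin-8, the chief neutrophil attractant of human tissues, had 815, 721 and 708 CPM after LPS plus nigericin, against 70.0, 43.3 and 90.5 CPM in vehicle. The lowest treated library was several times above the highest vehicle one. CXCL8 rose 11.0-fold (log2 fold change 3.46, SE 0.263, edgeR adjusted p = 7.57e-05). CXCL1, first known as a melanoma growth-stimulating factor and a CXCR2 ligand, stood at 767, 799.7 and 843 CPM after LPS plus nigericin, against 129, 81.5 and 128 CPM in vehicle. It was the most abundant member per length in both groups. CXCL1 rose 7.12-fold (log2 fold change 2.83, SE 0.192, edgeR adjusted p = 5.48e-05).

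CXCL2 and CXCL3 are close paralogs of CXCL1, bind the same receptor and were low in vehicle. CXCL3 had 39.8, 35.0 and 38.3 CPM after LPS plus nigericin, against 2.53, 1.42 and 2.97 CPM in vehicle. Its 16.3-fold rise was the largest of the ELR-type genes (log2 fold change 4.03, SE 0.275, edgeR adjusted p = 5.48e-05). CXCL2 had 18.3, 22.9 and 20.7 CPM after LPS plus nigericin, against 2.91, 1.72 and 2.98 CPM in vehicle, and rose 8.11-fold (log2 fold change 3.02, SE 0.243). The ratio within the pair moved. CXCL3 to CXCL2 in CPM, not corrected for length, was 2.18, 1.53 and 1.85 after LPS plus nigericin and 0.868, 0.824 and 0.996 in vehicle. These ratios did not overlap between groups. They were chosen after the values were seen and carry no test, and 3 libraries against 3 could not give an exact two-sided permutation p below 0.1.

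CXCL6, also called granulocyte chemotactic protein, binds both CXCR1 and CXCR2, and its paralog CXCL5 acts mainly on CXCR2. CXCL6 had 172, 145 and 151 CPM after LPS plus nigericin, against 13.2, 6.16 and 16.7 CPM in vehicle. It rose 13.0-fold (log2 fold change 3.70, SE 0.341, edgeR adjusted p = 1.48e-04). CXCL5 had 37.5, 27.4 and 31.1 CPM after LPS plus nigericin, against 6.32, 4.26 and 8.19 CPM in vehicle, and its 5.11-fold rise was the smallest of the ELR-type genes (log2 fold change 2.35, SE 0.253, edgeR adjusted p = 2.67e-04). In this pair too the ratio moved: CXCL6 to CXCL5 stood at 4.58, 5.29 and 4.86 after LPS plus nigericin and at 2.08, 1.45 and 2.04 in vehicle, without overlap. The CXCL8 to CXCL1 ratio was 1.06, 0.902 and 0.840 after LPS plus nigericin and 0.543, 0.532 and 0.708 in vehicle, also without overlap. With offsets for GC content and length the log2 fold changes of CXCL8 and CXCL1 drew closer, at 2.97 and 2.64. Those of CXCL6 and CXCL5 (3.25 and 1.77) and of CXCL3 and CXCL2 (4.15 and 2.85) did not. The ratios were not tested, and how often other gene pairs show no overlap was not counted.

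The 6 ELR-type genes shared their lowest vehicle library. Vehicle replicate 2 was the lowest vehicle library for all 6 and for 8 of the 10 members, as it was for 42.9% of tested genes. Their vehicle coefficients of variation, 24.03% for CXCL1 to 44.6% for CXCL6, were larger than those after LPS plus nigericin, 4.77% for CXCL1 to 15.9% for CXCL5. Vehicle libraries also differed more from each other across the count table. Chi-square over its degrees of freedom was 43.27 to 147.7 for pairs of vehicle libraries and at most 39.4 for pairs given LPS plus nigericin. The larger vehicle spread is thus not shown to be particular to these genes, and the share of all genes with it was not counted. After treatment no library was lowest for more than 3 of the 6. Without vehicle replicate 2 the log2 fold changes of the 6 lay between 2.14 for CXCL5 and 3.77 for CXCL3, and all 6 stayed called.

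Promoters were read from RefSeq (GRCh38.p14) for the 8 members that matched a promoter entry, over 250 bases before and 50 after the transcript start. CXCL16 and CCL2 had no match. Shown are the 140 bases before the start on the gene's own strand, 5′ to 3′, in lower case, with matches on either strand to the NF-kB consensus, to the AP-1 motif TGANTCA or to the TATA motif TATAAA in capitals. The ELR-type genes come first because 5 of them carry the same 11 letters.
CXCL1: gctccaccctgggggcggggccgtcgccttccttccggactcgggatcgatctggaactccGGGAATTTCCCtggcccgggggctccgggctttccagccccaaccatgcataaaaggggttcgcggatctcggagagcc
CXCL2: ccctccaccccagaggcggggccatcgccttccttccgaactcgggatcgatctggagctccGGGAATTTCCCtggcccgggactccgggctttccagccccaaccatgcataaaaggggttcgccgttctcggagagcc
CXCL3: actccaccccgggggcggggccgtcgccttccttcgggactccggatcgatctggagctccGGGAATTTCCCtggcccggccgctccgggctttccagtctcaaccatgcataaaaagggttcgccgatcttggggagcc
CXCL5: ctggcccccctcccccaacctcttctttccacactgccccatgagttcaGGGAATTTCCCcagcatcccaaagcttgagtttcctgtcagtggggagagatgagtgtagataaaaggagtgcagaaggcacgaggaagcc
CXCL6: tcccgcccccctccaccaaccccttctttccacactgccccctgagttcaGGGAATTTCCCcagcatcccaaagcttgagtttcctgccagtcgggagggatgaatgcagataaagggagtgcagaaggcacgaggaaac
CXCL8: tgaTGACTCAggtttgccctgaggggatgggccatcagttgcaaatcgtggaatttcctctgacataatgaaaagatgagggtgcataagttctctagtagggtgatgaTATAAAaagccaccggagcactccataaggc
CXCL10: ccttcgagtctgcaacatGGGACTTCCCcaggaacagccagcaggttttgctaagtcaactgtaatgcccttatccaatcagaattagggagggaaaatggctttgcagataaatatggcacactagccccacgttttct
CCL20: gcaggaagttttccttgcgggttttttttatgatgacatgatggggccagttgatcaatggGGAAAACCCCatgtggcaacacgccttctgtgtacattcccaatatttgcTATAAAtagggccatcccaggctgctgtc

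The stretches lie at chr4:73869253-73869392 (CXCL1, plus strand), chr4:74099196-74099335 (CXCL2, minus), chr4:74038690-74038829 (CXCL3, minus), chr4:73998678-73998817 (CXCL5, minus) and chr4:73836538-73836677 (CXCL6, plus). The others lie at chr4:73740429-73740568 (CXCL8, plus), chr4:76023498-76023637 (CXCL10, minus) and chr2:227813702-227813841 (CCL20, plus). The run GGGAATTTCCC stood in the promoters of CXCL1, CXCL2, CXCL3, CXCL5 and CXCL6 and in 27 of the 35116 RefSeq promoters in all (0.0769%). It was singled out after the sequences were seen. The 10-base NF-kB consensus matched 7 of the 8 member promoters, against 5.91% of all promoters. In the 5 genes with the shared run it was found on both strands, overlapping by all but 1 base, since the run reads nearly alike on either strand. Its first base lay at -79 in CXCL1 and CXCL3, -78 in CXCL2, -91 in CXCL5 and -90 in CXCL6, so the closer paralogs also shared its place.

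CXCL8 had no full match to that consensus in the window. Its closest 10 bases near that place, TGGAATTTCC at -92, missed 1 letter, and 50.2% of all promoters hold a run within 1 letter. That share is for any such run anywhere in the 300 bases on either strand. The share with this run at this place was not counted. CXCL8 was the only member whose window held the AP-1 motif, at -137, against 7.71% of all promoters. CXCL10 had matches to the NF-kB consensus at -177, outside the stretch shown, and at -122, and CCL20 had one at -79. TATAAA stood at -31 in CXCL8 and -29 in CCL20, against 11.5% of all promoters, and the C/EBP motif TTGCNNCAA, which 1.99% of all promoters hold, was in none of the 8 windows. A match is a run of letters and no measure of binding.

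**Figure D2:**
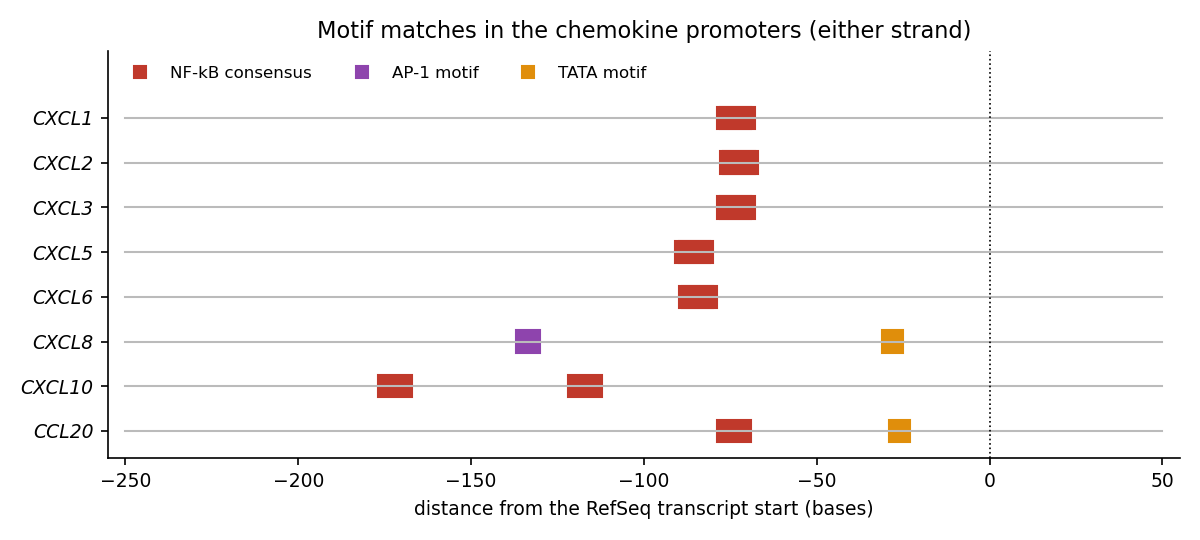
Matches on either strand to the NF-kB consensus (red), the AP-1 motif (purple) and the TATA motif (orange) are drawn against distance from the RefSeq transcript start in bases, 1 row per gene. Red blocks sit between -91 and -68 in CXCL1, CXCL2, CXCL3, CXCL5 and CXCL6, and CXCL8 has none.

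AU-rich elements in the 3′UTR mark many short-lived inflammatory mRNAs for decay, with ATTTA as their core and TTATTTATT as the stricter nonamer bound by tristetraprolin (ZFP36). In the GENCODE 29 principal transcripts the ELR-type genes held 5 to 11 ATTTA cores in their 3′UTRs, against a median of 2 in 13657 tested protein-coding genes. CXCL10, CXCL16 and CCL2 held 1 each and CCL20 held 3. The nonamer stood in CXCL2 (5 times), CXCL1 (3 times), CXCL3 and CXCL8 (once each), against 8.33% of tested genes with at least 1. The densest 30 bases of the 3 members with at least 3 cores in such a span are shown 5′ to 3′ with the cores in capitals. A span as dense was found in 2.79% of tested genes.
CXCL1: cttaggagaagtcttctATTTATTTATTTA
CXCL2: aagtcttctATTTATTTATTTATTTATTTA
CXCL8: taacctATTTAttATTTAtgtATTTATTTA

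The first base of these sites is base 129 of the 3′UTR in CXCL1, base 137 in CXCL2 and base 644 in CXCL8. CXCL16, the member that did not pass, had the fewest cores per kilobase (1.02), CXCL10, which rose, had 1.23, and CXCL2 had the most (13.9). The median of tested genes was 1.52, and all 6 ELR-type genes lay above it, as did CCL2 at 2.66 and CCL20 at 6.65. CCL20 was above CXCL5 (5.51) and CXCL6 (5.36). RNA half-life was not measured.

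Of the CXC genes without the ELR motif, CXCL10, which encodes the interferon-induced ligand IP-10 for CXCR3 on T cells, had 3.76, 4.41 and 3.52 CPM after LPS plus nigericin, against 0.405, 0.288 and 0.757 CPM in vehicle. It rose 8.01-fold from a low base of 22 to 69 counts per vehicle library (log2 fold change 3.00, SE 0.367, edgeR adjusted p = 4.65e-04). CXCL16, a membrane-bound ligand for CXCR6 that proteases release, had 9.61, 10.5 and 9.76 CPM after LPS plus nigericin, against 7.31, 7.95 and 9.70 CPM in vehicle. The groups overlapped, and the log2 fold change was 0.26 (SE 0.163, edgeR adjusted p = 0.211). With offsets for GC content and transcript length it was 0.71 and passed (edgeR adjusted p = 0.00837), so the miss depends on that correction.

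Of the CC genes, CCL20, the ligand of CCR6 on dendritic cells and Th17 cells, had 3.66, 3.18 and 2.88 CPM after LPS plus nigericin, against 0.121, 0.105 and 0.132 CPM in vehicle. Its 26.8-fold rise was the largest of the 10 (log2 fold change 4.74, SE 0.274, edgeR adjusted p = 3.22e-05). It was the 260th largest fold change of all tested genes. The libraries given LPS plus nigericin held 242, 265 and 242 counts of it, against only 11, 8 and 12 in the vehicle libraries. CCL2, which encodes the monocyte attractant MCP-1, was the lowest member per length after treatment, with 46, 115 and 110 counts after LPS plus nigericin and 27, 19 and 7 in vehicle. As CPM it stood at 0.695, 1.38 and 1.31 after LPS plus nigericin, against 0.296, 0.249 and 0.0768 in vehicle, and it rose 5.43-fold with the widest error of the 10 (log2 fold change 2.44, SE 0.541, edgeR adjusted p = 0.00608). CCL2 was too low to enter the fit when 1 CPM in 3 libraries was required. Counts of exactly 4 were more frequent than their neighbours across the table, at 1001 to 1283 genes per library against 456 to 641 genes at 3 and 297 to 442 at 5, so the number of sequenced fragments behind a low count is uncertain.

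Levels were compared between genes per kilobase of the principal GENCODE 29 transcript. After LPS plus nigericin CXCL1 led at 732 ± 34.9 CPM per kb, followed by CXCL8 at 439 ± 34.0, CXCL6 at 90.8 ± 8.14, CXCL3 at 35.1 ± 2.26, CXCL2 at 16.9 ± 1.91 and CXCL5 at 12.6 ± 2.01 (SD, n = 3). The ranges of neighbours in this order did not overlap down to CXCL16 at 4.47 ± 0.202. CXCL16 overlapped CCL20 (4.05 ± 0.490), CCL20 overlapped CXCL10 (3.32 ± 0.390), and CCL2 came last, apart from CXCL10, at 1.52 ± 0.508. In vehicle CXCL1 led at 103 ± 24.7 CPM per kb, followed by CXCL8 at 39.8 ± 13.9 and CXCL6 at 6.99 ± 3.12. There CXCL16 (3.74 ± 0.557) overlapped CXCL6 and stood above CXCL5 (2.47 ± 0.775), CXCL3 (2.15 ± 0.746) and CXCL2 (2.08 ± 0.584), of which the last 3 overlapped in turn. CXCL10 (0.411 ± 0.207), CCL2 (0.280 ± 0.156) and CCL20 (0.149 ± 0.0168) closed the list and also overlapped in turn. The order depends on the length used. Over all annotated exons CXCL3 was at 16.98 CPM per kb after LPS plus nigericin, CXCL2 (12.2 to 15.3) overlapped CXCL5 (10.8 to 14.8), and CCL20 at 2.03 came below CXCL10 at 3.32. In vehicle CXCL3 at 1.04 CPM per kb then came below CXCL2 at 1.69, and all neighbours from CXCL6 down to CXCL10 overlapped in turn.

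**Figure D3:**
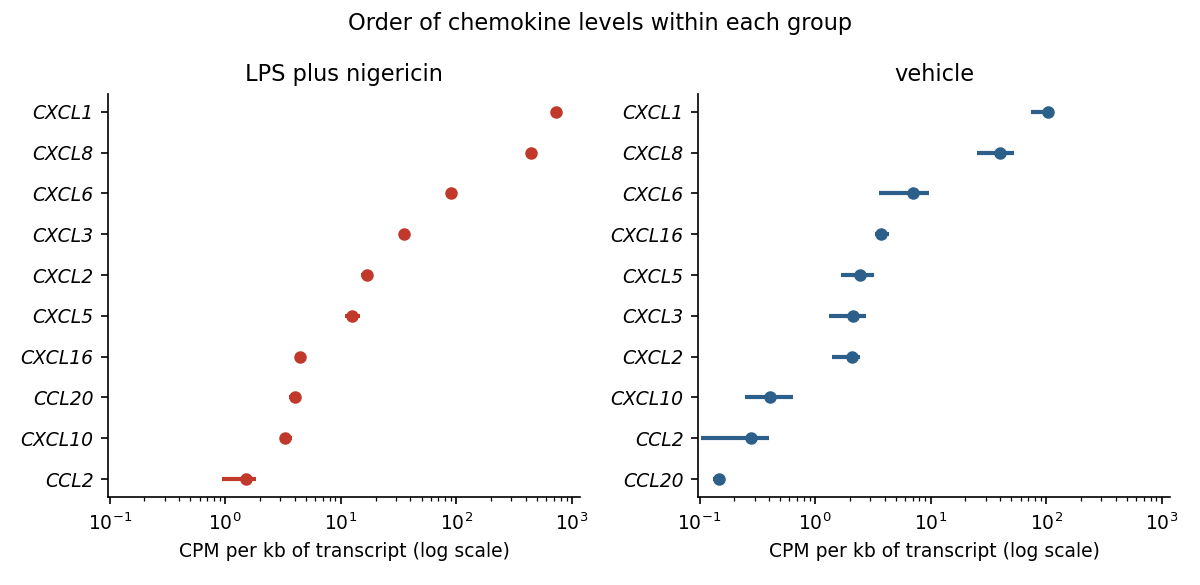
Genes are ordered from highest to lowest level in LPS plus nigericin (left) and vehicle (right). Points are means of 3 libraries in CPM per kb of transcript on a log axis and lines run from the lowest to the highest library, with CXCL1, CXCL8 and CXCL6 on top in both groups and CXCL16 in 7th place on the left and 4th on the right.

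The 6 ELR-type genes lie within 359 kb on chromosome 4 of GRCh38, from CXCL8 at base 73740506 to CXCL2 at base 74099293 by GENCODE 29. CXCL8 (ENSG00000169429), CXCL6 and CXCL1 (ENSG00000163739) are on the plus strand, and CXCL5, CXCL3 and CXCL2 on the minus strand. The platelet chemokine genes PF4V1, PF4 and PPBP lie among them and had too few counts to test. PF4V1 was at 0.151, 0.336 and 0.0714 CPM after LPS plus nigericin and 0 counts in all vehicle libraries. Of the 3 nearest tested protein-coding genes on each side, EREG, which encodes the EGF receptor ligand epiregulin, rose to 388 ± 58.6 CPM after LPS plus nigericin, against 56.7 ± 21.3 CPM in vehicle (log2 fold change 2.77, SE 0.288, edgeR adjusted p = 2.34e-04). With offsets for GC content and length its log2 fold change was 1.96 and it stayed called. Its start lies 265850 bases beyond CXCL2. MTHFD2L, the closest neighbour at 14881 bases, was at 5.94 ± 0.214 CPM after LPS plus nigericin and 3.79 ± 0.738 CPM in vehicle (log2 fold change 0.65, edgeR adjusted p = 0.0228), and its value was -0.10 with offsets for GC content and length. EPGN, COX18 and ANKRD17 were also called higher (log2 fold changes 1.78, 0.89 and 1.13), and with those offsets none of the 3 passed (edgeR adjusted p = 0.0683, 0.924 and 0.238). The MTHFD2L call was also lost without any 1 treated library or vehicle replicate 3, that of EPGN without LPS plus nigericin replicate 1 or vehicle replicate 1 and with the replicate number as a block, and that of COX18 with library totals and without any 1 treated library or vehicle replicate 1. RASSF6 did not pass (log2 fold change 1.10, edgeR adjusted p = 0.290).

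**Figure D4:**
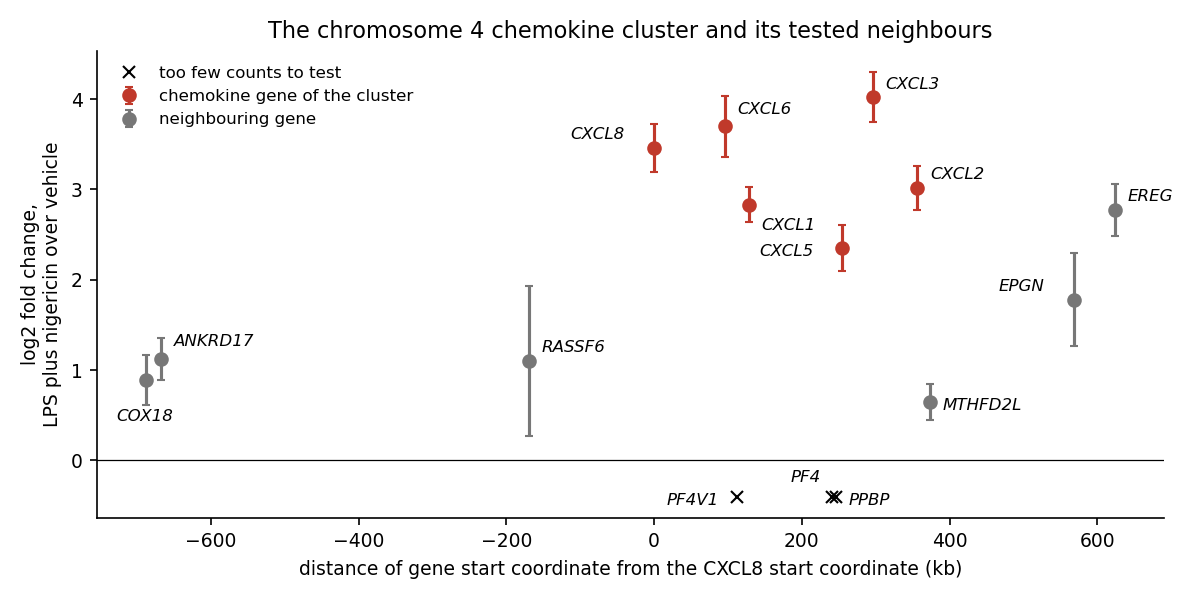
The log2 fold change of LPS plus nigericin over vehicle (bars, SE) is plotted against distance from the CXCL8 start in kb, red for chemokine genes and grey for neighbours, with crosses below 0 marking genes too low to test, whose height carries no value. The red points lie between 2.35 and 4.03, and of the neighbours EREG alone reaches that band.

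CXCL1, CXCL2 and CXCL3 are 90.7% to 94.4% identical in coding sequence, and how the authors assigned reads that match more than 1 gene is not given in the sources used here. Few 75-base stretches are shared, however: 0.293% of the CXCL1 principal transcript, 2.27% of CXCL2 and 2.30% of CXCL3 occur in another gene's transcripts. These are shares of each gene's own sequence and not of its reads. CXCL1 was far more abundant than CXCL2 (803 against 20.6 CPM after LPS plus nigericin). Misassigned CXCL1 reads could thus weigh more on the CXCL2 value than the CXCL2 share says, and more so for shorter reads. CXCL16 shares 85 exon bases with MED11 on the opposite strand and CXCL6 shares 94 with the pseudogene PPBPP1, and whether the counting used strand is likewise unknown.

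Most remaining chemokine ligands were too low to test. Of 37 other ligand genes 19 were listed, 5 had enough counts to test, 1 rose and 1 fell, against 28.9% and 26.4% of all tested genes. The count that rose was 2 with offsets for GC content and length, without a count filter, and without LPS plus nigericin replicate 3, vehicle replicate 1 or vehicle replicate 3, and it was 3 without vehicle replicate 2. CCL5, a T cell and monocyte attractant, was called with the offsets (log2 fold change 0.69, edgeR adjusted p = 0.00468) and without vehicle replicate 2 (0.53, edgeR adjusted p = 0.0153), and stood at 0.34 in the fit of all 6 libraries (edgeR adjusted p = 0.163). CXCL11, an interferon-induced CXCR3 ligand encoded next to CXCL10, rose to 2.84 ± 0.331 CPM after LPS plus nigericin, against 0.378 ± 0.204 CPM in vehicle (log2 fold change 2.89, SE 0.426, edgeR adjusted p = 9.97e-04). CCL28, an epithelial ligand of CCR10, was called lower, at 0.342 ± 0.0947 CPM after LPS plus nigericin and 0.974 ± 0.343 CPM in vehicle (log2 fold change -1.51, edgeR adjusted p = 0.0144), and lost the call without vehicle replicate 1 (edgeR adjusted p = 0.0653). CXCL12 had 0 counts in all 6 libraries. The median log2 fold change of the 5 tested ligands was 0.34.

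Few receptors were detected at a level that could be tested. Of 23 chemokine receptor genes 16 were listed, 6 tested, 0 rose and 2 fell, while the median log2 fold change of the 6 was 0.37, opposite in sign to the calls. Of all tested genes 28.9% rose and 26.4% fell. The count of 0 that rose in edgeR was also 0 at an unadjusted p under 0.05 and with DESeq2, and it was 1 with limma-voom and without vehicle replicate 1 (ACKR4, log2 fold change 3.45 and 7.08) and with the offsets (CCR10, 0.70, edgeR adjusted p = 0.0478). ACKR4 had 13, 16 and 20 counts after LPS plus nigericin and 19, 0 and 0 in vehicle. Its 7.08 thus rests on vehicle libraries with 0 counts, and with all 6 libraries it was at 1.54 (edgeR adjusted p = 0.349). CXCR2, the main receptor of the ELR-type ligands, had 0 counts in all 6 libraries, which allows up to 0.0329 to 0.0453 CPM per library (3 counts, for counting error only and if each count is 1 fragment, so the limit is higher where 1 fragment adds several counts), and CXCR1 had 8 and 4 counts in 2 treated libraries and 0 elsewhere. CCRL2, an atypical receptor that binds chemerin, fell to 1.36 ± 0.138 CPM after LPS plus nigericin, against 3.57 ± 0.788 CPM in vehicle (log2 fold change -1.39, SE 0.243, edgeR adjusted p = 0.00211). CCR7, the lymph node homing receptor of lymphocytes and dendritic cells, fell to 0.114 ± 0.101 CPM after LPS plus nigericin, against 1.18 ± 0.207 CPM in vehicle (log2 fold change -3.36, SE 0.830, edgeR adjusted p = 0.00975).

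Of 16 proteases that shed or trim chemokines 10 were tested, of which 7 rose and 1 fell, against 28.9% and 26.4% of all tested genes, with a median log2 fold change of 1.16. FAP, among the 7, had 80, 57 and 31 counts after LPS plus nigericin and 0, 0 and 4 in vehicle. It passed the count filter through the treated group alone, so it could enter the 10 only as a gene that rose. The count that rose was also 7 with DESeq2 and limma-voom. It was 6 with offsets for GC content and length, RLE factors, library totals, a replicate block or no count filter. It was also 6 without any 1 library other than vehicle replicate 3. It was 5 when 1 CPM in 3 libraries was required and 2 against a 2-fold change. MMP2, among the 7 (log2 fold change 0.38, edgeR adjusted p = 0.0476), lost its call in 11 of 15 alternatives. The count that fell was 0 with the offsets and against a 2-fold change. ADAM17, a sheddase of membrane ligands, rose to 19.2 ± 6.10 CPM after LPS plus nigericin, against 3.23 ± 0.884 CPM in vehicle (log2 fold change 2.57, SE 0.294, edgeR adjusted p = 3.50e-04). With offsets for GC content and length it rose by 1.56 on the log2 scale. ADAM10, which sheds CXCL16 from resting cells, was called higher at 86.2 ± 12.1 CPM after LPS plus nigericin and 35.3 ± 9.44 CPM in vehicle (log2 fold change 1.29, edgeR adjusted p = 0.00135). With the offsets it was at 0.12 and did not pass (edgeR adjusted p = 0.252). MMP14 was called lower (log2 fold change -0.67, edgeR adjusted p = 0.00110) and with the offsets did not pass (-0.24, edgeR adjusted p = 0.0593).

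Of 28 transcription factors and NF-kB pathway genes known to act on chemokine promoters 12 rose, 8 fell and 8 did not pass, with a median log2 fold change of 0.31. These are 42.9% higher and 28.6% lower, against 28.9% and 26.4% of all tested genes, so the share that fell was near that of all genes. With the offsets 16 rose and 5 fell, and 5 fell also without LPS plus nigericin replicate 1, LPS plus nigericin replicate 3 or vehicle replicate 1. The AP-1 gene JUN rose to 434 ± 52.9 CPM after LPS plus nigericin, against 104 ± 12.04 CPM in vehicle (log2 fold change 2.06, SE 0.142), and the stress factor ATF3 to 91.1 ± 6.90 CPM, against 7.34 ± 2.69 CPM in vehicle (log2 fold change 3.63, SE 0.270). IRF1, an interferon-regulated activator, fell to 19.4 ± 1.44 CPM after LPS plus nigericin, against 73.8 ± 2.39 CPM in vehicle, and BCL3, an atypical IkB protein, to 6.44 ± 0.705 CPM, against 17.5 ± 2.53 CPM in vehicle. BCL3 had a log2 fold change of -1.44, or -0.56 with the offsets. Of 12 genes listed for mRNA stability 5 rose and 0 fell, against 28.9% and 26.4% of all tested genes, with a median log2 fold change of 0.30. The count of 0 that fell in edgeR was also 0 at an unadjusted p under 0.05 and with DESeq2 and limma-voom, and it was 2 without vehicle replicate 2. With the offsets 7 rose, among them ZC3H12A, which encodes the ribonuclease Regnase-1 (0.81, edgeR adjusted p = 0.000382), and KHSRP, which encodes an AU-rich element binding decay protein (0.66, edgeR adjusted p = 0.0101). TNFAIP3 rose most (log2 fold change 3.08, SE 0.210). It encodes A20, an NF-kB inhibitor and not an RNA-binding protein. RC3H1 and RC3H2, which encode the mRNA decay proteins Roquin-1 and Roquin-2, rose by 2.57 and 1.52 on the log2 scale, or by 1.42 and 0.39 with the offsets. HNRNPD, which encodes the AU-rich element binding protein AUF1, and MAPKAPK2, a kinase that restrains tristetraprolin, had values of 0.76 and 0.46, and the HNRNPD call was lost with the offsets, where it was -0.11. ZFP36 itself stood at 0.07 (edgeR adjusted p = 0.750), or at 0.58 with the offsets, where it passed (edgeR adjusted p = 0.0391).

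Among 10989 non-member genes with at least 5 CPM in the higher group, the 5 whose centred log2 CPM over the 6 libraries lay nearest to the mean of the 6 ELR-type genes were MXD1, HSPH1, LRIF1, ZSWIM6 and KDM6A. Their root mean square distances were 0.0799, 0.0945, 0.117, 0.140 and 0.147 log2 units. The ELR-type genes were not nearest to their own mean: 3 non-members lay nearer to it than CXCL8 did, and 122 nearer than CXCL5. MXD1, a MAX partner that opposes MYC, stood at 29.1 ± 2.61 CPM after LPS plus nigericin and 3.04 ± 0.808 CPM in vehicle. HSPH1, a large heat shock protein of the HSP110 family, stood at 418 ± 54.1 CPM after LPS plus nigericin and 44.5 ± 13.5 CPM in vehicle. These genes were chosen for their likeness, so their fold changes of 3.06 to 3.26 on the log2 scale are a description.

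The fit was repeated with corrections for GC content and transcript length. The longest transcripts of the members, which for CXCL3, CCL2 and CCL20 are not the principal ones, held 33.4% GC in CXCL8 to 56.0% in CXCL16, against a median of 49.0% in tested protein-coding genes. With per-library offsets for GC content and length all 10 members passed with higher values, where 23.6% of 18620 genes did. The log2 fold changes then were 2.97 for CXCL8, 2.64 for CXCL1, 2.85 for CXCL2, 4.15 for CXCL3, 3.25 for CXCL6 and 1.77 for CXCL5, and 2.46, 0.71, 2.01 and 4.17 for CXCL10, CXCL16, CCL2 and CCL20. Of these 8 were smaller than without the offsets, and CXCL3 and CXCL16 were larger. The offsets also remove any effect of the treatment that follows GC content or length. Against a 2-fold change (glmTreat) 9 members remained called, with adjusted p-values of 7.94e-05 for CCL20 to 0.0465 for CCL2, where 7.89% of tested genes were called higher.

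**Figure D5:**
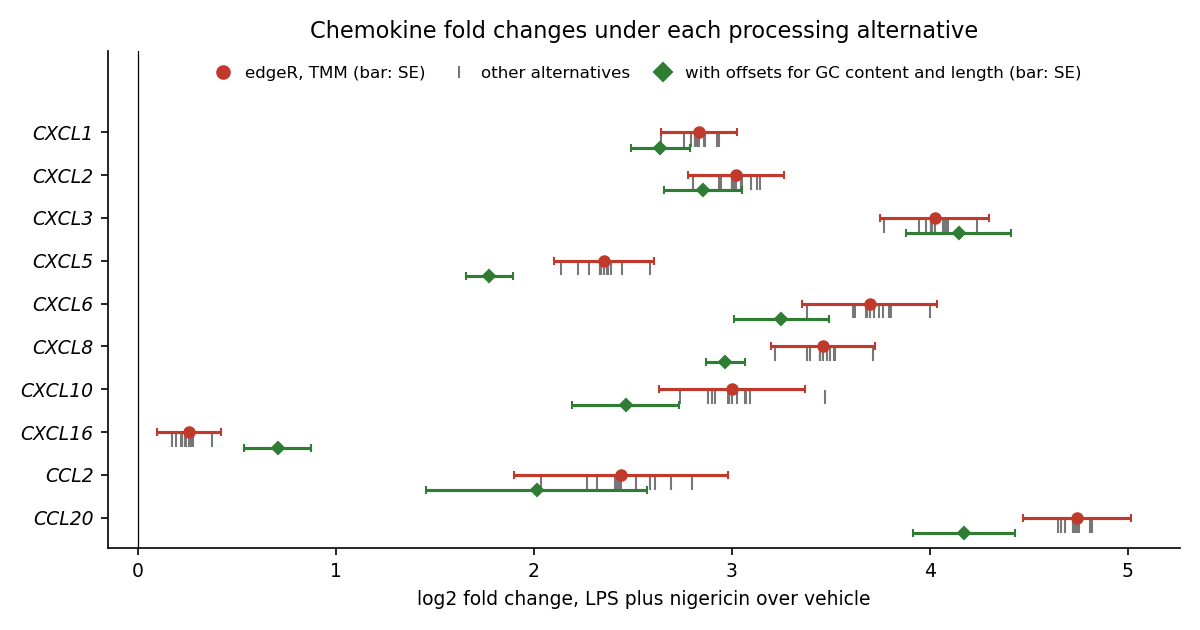
For each gene the red point is the log2 fold change of LPS plus nigericin over vehicle from the edgeR fit (bar, SE), grey ticks are the other processing alternatives and the green diamond is the fit with offsets for GC content and length (bar, SE). The other 9 genes stay above 1.77 under every alternative drawn for them, and CXCL16 stays between 0.17 and 0.71.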

How the data were processed

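RNA was sequenced from 6 libraries of T24 cells, 3 given LPS plus nigericin and 3 given vehicle. The authors deposited raw counts per Ensembl gene, with hg38 as the build per the submitters' processing notes. Per the labels' protocols a service company extracted RNA and made libraries. Not given in the sources used here: aligner, counter, annotation release, strand setting. Of 37871 identifiers 37840 matched a symbol, and 0 columns belonged to no sample.

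Genes passing filterByExpr (19170) were normalized with TMM and compared in edgeR 4.0.16 (R 4.3.3) by a robust quasi-likelihood F test with group as the only term. The SE is the absolute log2 fold change over the square root of F. Alternatives used RLE factors, library totals, DESeq2 1.42.0, limma-voom (limma 3.58.1), other filters, a replicate block, glmTreat, each library left out, and offsets per library, smoothed by loess (span 0.3), against GC content and length in GENCODE 29, which held 94.8% of identifiers. No library pair of a group looked like a duplicate (chi-square over its degrees of freedom at least 18.0). Scripts were tested on simulated counts.

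The members and lists were chosen with earlier results of these data known. Beside the 10 members, the rule named up to 2 called genes per direction in each list, 3 tested neighbours on each side of the cluster and the 5 genes of nearest profile (prior count 2). CXCR1, CXCR2, CXCL12, PF4V1, ZFP36, CCL5, ACKR4, CCR10, ZC3H12A, KHSRP and KRT7 were named after their values were seen. So were COL1A1, PDGFRB, PECAM1, CDH5, CD14, CD33, FAP, MMP2, the undetected markers and members of counts of 5 or fewer. Intervals and floors cover counting error only. Figures used Python 3.11.15.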

Additional observations from a re-analysis of the deposited data

How the results depend on the processing

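The direction of all 10 members held in all 149 alternative fits of a member, and 148 also kept their side of the threshold. The exception was CXCL16 with offsets for GC content and length (log2 fold change 0.71). Over the alternatives the log2 fold changes ranged from 2.64 to 2.94 for CXCL1, 2.97 to 3.71 for CXCL8 and 1.77 to 2.58 for CXCL5. The count of members called higher was 8 with the stricter filter, where CCL2 was not tested, and 10 with the offsets. Against a 2-fold change 2684 genes were called, 1512 higher and 1172 lower, since that test asks for more than any change. The call of MAPKAPK2 (log2 fold change 0.46), which lay under 2-fold, ended by construction. Those of KRT19, CCL28 and CCRL2 also ended, though their log2 fold changes (-1.38, -1.51 and -1.39) lay past 2-fold (glmTreat adjusted p = 0.063, 0.191 and 0.112). With the replicate number as a block 10408 genes were called and the same 9 members rose, at 3.52 for CXCL8. Same-numbered libraries did not deviate together (correlations of deviations from the group means -0.0231, 0.0956 and -0.0236). So few libraries cannot exclude a pairing, and the main fit did not pair them. Depth limits CCL2, CCL20 and CXCL10 in vehicle, at 7 to 69 counts.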
